A study of Mus musculus with 3 samples.

Results

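The genes described here are 8 pancreatic digestive proteases of mouse: the chymotrypsin genes Ctrb1, Ctrc and Ctrl, the elastase genes Cela1, Cela2a and Cela3b, and the carboxypeptidase genes Cpa1 and Cpb1. They were chosen by symbol, as 8 of the 55450 features in the deposited counts, and each symbol matched 1 feature. Their RNA was measured in single cells dissociated from pancreas, as UMIs (unique molecular identifiers, each standing for 1 captured RNA molecule), with a kit that reads the 3-prime ends of polyadenylated RNA. The study has 3 libraries, 1 per group. The none library was made from sedentary mice with the treatment label "none", and the sources used here do not state their genotype or age. The diabetic sedentary library carries the treatment label "diabetic", and the diabetic exercise library the label "diabetic-Exercise". Per the series text the study trained male db/db mice on a treadmill from 6 weeks of age. The db mutation disables the leptin receptor, and its homozygous carriers grow obese and diabetic. The number of animals behind a library is unknown, since the labels do not explain the 3 that closes each title. With 1 library per group nothing could be tested between groups, and group and library cannot be told apart.

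Acinar cells of the exocrine pancreas make digestive proteases as inactive zymogens, store them in zymogen granules and release them into the duct. In the gut, trypsin cuts the zymogens and so switches them on. Chymotrypsins cut proteins after large, mostly aromatic residues, elastases cut after small ones, and carboxypeptidases remove residues one by one from the end of the chain, type A taking aromatic and aliphatic residues and type B basic ones. Transcription of these genes in acinar cells is driven in large part by PTF1, a complex of PTF1A, an E protein and RBPJL that binds an E-box next to a TTTCCC-type box.

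Acinar barcodes were chosen without the 8 genes and without Reg2. Clusters of barcodes counted as acinar when their share of UMIs from 24 other acinar markers was high and no other cell type led their marker genes. They comprised 12 of 25 clusters and 28425 of 34799 kept barcodes: 7175 in the none library, 8574 in diabetic sedentary and 12676 in diabetic exercise. Marker shares were taken of a barcode's UMIs outside the 8 genes and Reg2. The 24 markers held a median of 73.4%, 73.4% and 62.6% of these UMIs, with libraries in the order above, which is kept below. Markers of the 13 other cell types searched held a median of 0.135%, 0.142% and 0.202% of these UMIs. Within the acinar barcodes ductal markers had the highest summed level, 690, 706 and 1099 UMIs per 1000000, and adipocyte markers the lowest, 0.272, 0 and 0, with 2, 5 and 5 of the 5 adipocyte markers at 0. The exercise library stood apart in quality: median UMIs per acinar barcode were 4362, 5734 and 1963, and median mitochondrial shares were 0.570%, 1.67% and 6.76%. Acinar clusters were also spread unevenly: the cluster led by Amy2a5 and Amy2b had 3803, 636 and 30 barcodes, and the largest cluster led by mitochondrial genes had 30, 279 and 4046. Of the 12 acinar clusters 6 had an acinar marker among their 10 leading genes, and these held 6372, 6509 and 2546 barcodes. The libraries shared few barcode sequences (32, 43 and 61 for none with diabetic sedentary, none with exercise, and diabetic sedentary with exercise).

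The position of each gene was taken from GENCODE M21 on GRCm38. Ctrb1 (ENSMUSG00000031957) lies at chr8:111686519-111691010, Ctrl at chr8:105932003-105933862, Cela1 (ENSMUSG00000023031) at chr15:100674421-100687921 and Cela3b at chr4:137420999-137430540, all on the minus strand. Cpb1 lies at chr3:20248264-20275733 on the minus strand and Cpa1 at chr6:30639218-30645363 on the plus strand. Cela2a (chr4:141814962-141826160) and Ctrc (chr4:141814962-141846359) are drawn on the same strand with the same last base. They share 305 exon bases, 17.7% of the exon bases of Cela2a and 21.4% of those of Ctrc, and the last 400 bases of Cela2a matched a Ctrc transcript at 99.7% over 313 bases. RefSeq lists Ctrc as a transcribed pseudogene where GENCODE lists it as protein coding. The sources used here do not say how reads of the shared stretch were assigned, so the split of counts between Cela2a and Ctrc is uncertain. The 3-prime end of Cela3b matched Cela3a at 95.9% over 246 bases, so their split is uncertain too, while Cela3a itself had only 16.8, 24.4 and 26.9 UMIs per 1000000.

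The 250 bases before the start are shown for Cela1 and Ctrb1, because these 2 genes differed in opposite directions between the none and diabetic libraries and because both have an E-box and a TTTCCC box set close together. The sequences are from RefSeq on GRCm38.p6, minus strand, 5′ to 3′ (Cela1 chr15:100687921-100688170, Ctrb1 chr8:111691011-111691260). Capitals mark the E-box CACCTG or its variant CAGCTG, and the box TTTCCC, found on either strand.

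Cela1: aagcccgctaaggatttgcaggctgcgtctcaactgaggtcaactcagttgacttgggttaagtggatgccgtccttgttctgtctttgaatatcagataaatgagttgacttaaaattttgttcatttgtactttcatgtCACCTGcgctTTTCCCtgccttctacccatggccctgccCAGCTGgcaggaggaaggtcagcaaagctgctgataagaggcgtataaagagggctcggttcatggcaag

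Ctrb1: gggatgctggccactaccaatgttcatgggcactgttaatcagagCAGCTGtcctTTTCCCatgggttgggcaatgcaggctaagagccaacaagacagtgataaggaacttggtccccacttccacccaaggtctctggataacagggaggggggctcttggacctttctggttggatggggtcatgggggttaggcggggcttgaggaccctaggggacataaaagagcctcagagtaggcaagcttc

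In Cela1 the pair begins at position -109 from the start and in Ctrb1 at -205, in each case with 4 bases between the boxes. CACCTG, on either strand, was in 5 of the 7 member promoters listed by RefSeq and in 17.2% of 32851 mouse promoters of the same length. CAGCTG was in 3 of 7 and in 13.0% of all, and TTTCCC in 4 of 7 and in 21.9%. An E-box of either kind within 30 bases of TTTCCC was in 2 of 7, Cela1 and Ctrb1, and in 1.47% of all. The exact spacing, CACCTGNNNNTTTCCC or CAGCTGNNNNTTTCCC, was in 7 promoters of 32851 (0.0213%): those of Cela1, Ctrb1, Esp18, Gm5771, Pacc1, Prss1 and Tnfrsf9. Prss1 and Gm5771, like the chymotrypsin and elastase genes among the 8, code for or resemble pancreatic serine proteases. That spacing was looked for after both sites had been seen, and a match of letters does not show binding.

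Together the 8 genes made up a similar part of acinar RNA in the 3 libraries: 35.8%, 36.5% and 33.3% of all UMIs. Over single barcodes the middle 50% ran from 33.0% to 37.9%, from 33.3% to 38.9% and from 30.9% to 34.4%, so the 3 ranges overlapped. The mix inside that part differed far more than its size. Ctrb1 took a larger share in both diabetic libraries, and Cela1, Cela2a, Ctrl, Ctrc and Cpa1 a smaller one. Levels below are UMIs per 1000000 UMIs of the acinar barcodes, written CPM. Each ratio between libraries carries an exact conditional Poisson 95% interval that covers counting error only.

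Ctrb1, the main chymotrypsinogen gene by UMIs, had 111936 CPM in the none library, 164677 in diabetic sedentary and 147614 in diabetic exercise. It was the highest of the 8 genes in each library and highest of all in diabetic sedentary. The ratio of diabetic sedentary over none was 1.47 (1.470 to 1.473), just inside the 1.5-fold limit used here to call a difference. The ratio of diabetic exercise over diabetic sedentary was 0.896 (0.8954 to 0.8974). Diabetic exercise remained above none by 1.32-fold (1.317 to 1.320) in CPM, but not when scaled to the UMIs outside secretory genes, where the log2 ratio was -0.08.

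Ctrl, which codes for a chymotrypsin-like protease, differed the other way: 32618, 24014 and 22746 CPM, with the none library highest and the 2 diabetic libraries close together. Ctrc, chymotrypsin C, known in human for its part in breaking down trypsinogen, was the lowest of the 8 genes at 15963, 13119 and 10136 CPM. Diabetic sedentary over none was 0.736 (0.7345 to 0.7379) for Ctrl and 0.822 (0.8192 to 0.8244) for Ctrc. The UMI ratio of Ctrb1 to Ctrl, which does not depend on how libraries are scaled, was 3.43, 6.86 and 6.49.

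Cela1 had 58735 CPM in the none library, 37782 in diabetic sedentary and 42227 in diabetic exercise. It was thus the second of the 8 genes in the none and exercise libraries, and stood behind Cela3b in diabetic sedentary. Diabetic sedentary over none was 0.643 (0.6421 to 0.6444) and exercise over diabetic sedentary 1.12 (1.115 to 1.120). The latter turned to a log2 ratio of -0.32 under scaling by TMM (trimmed mean of M-values, which centres on the bulk of genes), while the former kept its direction.

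Cela2a had 36829, 23845 and 22718 CPM, a diabetic sedentary over none ratio of 0.647 (0.6460 to 0.6489) and an exercise over diabetic sedentary ratio of 0.953 (0.9500 to 0.9554). Cela3b was the elastase gene that was highest in diabetic sedentary, at 37987, 48770 and 37609 CPM. Its none and exercise levels in CPM lay within 1% of each other, with a ratio of exercise over none of 0.990 (0.9877 to 0.9924). That closeness held only for some scalings: the log2 ratio was -0.29 under TMM and -0.49 when scaled to the UMIs outside secretory genes. Diabetic sedentary over none was 1.28 (1.281 to 1.286) for Cela3b. The UMI ratio of Cela3b to Cela2a was 1.03, 2.05 and 1.66.

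Cpa1, which codes for the A-type enzyme, had 33893, 23339 and 20659 CPM, highest in the none library. Cpb1, for the B-type enzyme, had 29879, 28998 and 29482 CPM and by these pooled values was the most even of the 8 genes across libraries. Diabetic sedentary over none was 0.689 (0.6870 to 0.6902) for Cpa1 and 0.971 (0.9683 to 0.9727) for Cpb1. The small Cpb1 difference changed direction with the scaling (log2 ratio -0.04, and 0.16 under TMM). For exercise over diabetic sedentary the Cpb1 log2 ratio was 0.02 in CPM and -0.46 under TMM. Within single acinar clusters that CPM ratio ran from 0.93 to 1.3. The UMI ratio of Cpb1 to Cpa1 was 0.882, 1.24 and 1.43.

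**Figure D1:**
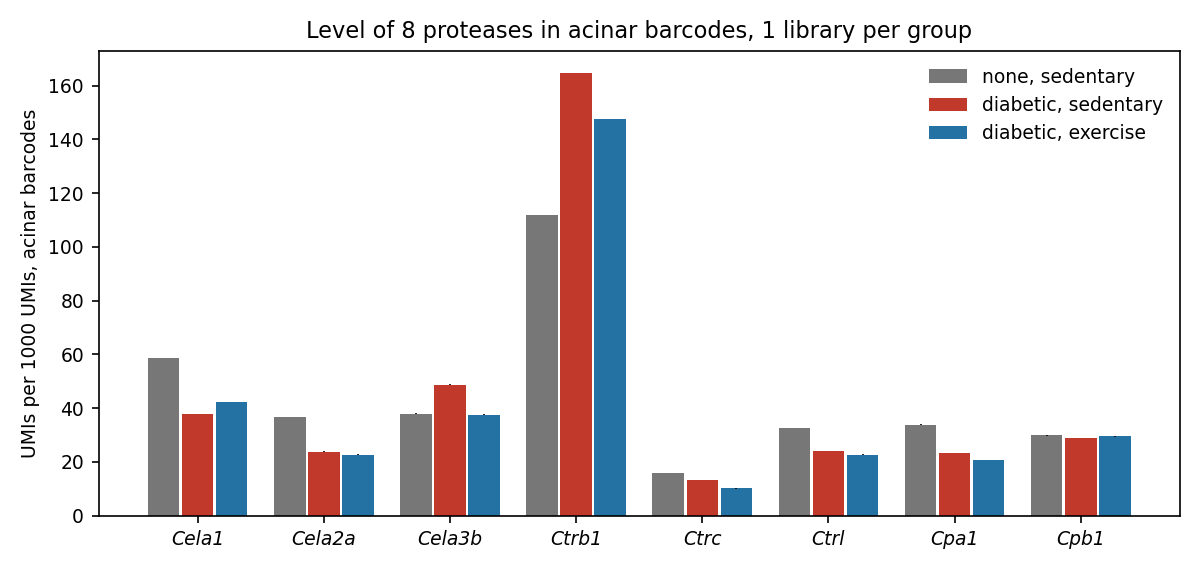
UMIs of each protease gene per 1000 UMIs of acinar barcodes (y axis, from 0) for the none, diabetic sedentary and diabetic exercise libraries, 1 bar per library, with counting intervals too narrow to see at this scale. Ctrb1 is the tallest in each library and lowest in none, Cela1, Cela2a, Ctrl and Cpa1 are highest in none, and Cpb1 is level.

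Past 1.5-fold, 2 of the 8 genes (Cela1 and Cela2a) were lower in diabetic sedentary than in none, where 15.8% of 8237 genes were lower and 4.05% higher. The median log2 ratio of the 8 genes was -0.36, and that of all genes -0.19. Neither Cela1 nor Cela2a passed 1.5-fold under TMM (log2 ratio -0.43 for both), where Ctrb1 did as the only member (0.76). Under TMM 7.60% of all genes were higher and 8.16% lower, with a median of 0.02. Cela1 and Cela2a also stayed inside the limit when barcodes were thinned to 1000 UMIs (-0.57 and -0.54) and as the mean of shares per barcode (-0.58 and -0.54). Between diabetic exercise and diabetic sedentary 0 of 8 passed, where 31.3% of 8178 genes were higher and 0.783% lower. The members' median log2 ratio was -0.12, against 0.41 for all genes. UMIs outside secretory genes made up 24.1% of acinar UMIs in exercise and 16.8% in diabetic sedentary, and under TMM 8 of 8 members were lower in exercise, 4 of them (Cela3b, Ctrb1, Ctrc and Cpa1) past 1.5-fold. Of all genes 5.56% were then lower and 7.24% higher past the limit, with a median of -0.07. Exercise over none shares a library with each of the other 2 comparisons. Here 3 of 8 (Cela2a, Ctrc and Cpa1) were lower past 1.5-fold, where 4.44% of 7859 genes were lower and 20.9% higher. The median of the 8 genes was -0.50 and that of all genes 0.22. Cela2a was no longer past the limit when thinned (-0.56) or as the mean of shares (-0.58), nor Cpa1 with clusters weighted as in diabetic sedentary (-0.58).

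Because scaling moved these ratios, the mix of the 8 genes was also taken as shares of their own UMIs. Percentages per library are of summed UMIs, and middle ranges are over shares within single barcodes. Ctrb1 made up 31.3%, 45.2% and 44.3% of the UMIs of the 8 genes. The middle 50% of acinar barcodes ran from 29.2% to 36.9% in none, from 40.6% to 49.3% in diabetic sedentary and from 42.4% to 47.0% in diabetic exercise. The none range did not overlap the other 2, which overlapped each other. Cela1 made up 16.4%, 10.4% and 12.7%, with middle ranges of 14.2% to 17.4%, 8.98% to 12.0% and 11.3% to 14.0%. The none range was again apart from the other 2. Cela3b made up 10.6%, 13.4% and 11.3%, with overlapping middle ranges in none and diabetic sedentary. For each UMI of Cela1 there were 1.91 UMIs of Ctrb1 in none, 4.36 in diabetic sedentary and 3.50 in diabetic exercise.

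A mix close to that of the same library's acinar barcodes was found in other cell types, which are not known to make these enzymes. Over cell types with at least 50 barcodes, the 8 genes held from 14.1% (ductal) to 25.7% (erythroid) of UMIs in none, from 7.96% (endocrine) to 20.7% (mural) in diabetic sedentary and from 7.32% (ductal) to 17.0% (endothelial) in diabetic exercise. These shares were below those of acinar barcodes in each library. Ctrb1 UMIs per Cela1 UMI ran from 1.83 to 2.07 over 7 such types in none, from 3.71 to 4.20 over 6 in diabetic sedentary and from 3.22 to 3.50 over 5 in diabetic exercise. The 3 ranges did not overlap. The cell types of 1 library share 1 suspension, so they are not separate measurements of the difference. RNA free in the suspension was not measured, and its part in these UMIs was not tested. Thinned to 1000 UMIs, Ctrc, the lowest of the 8, was still seen in 86.5% of ductal barcodes of the exercise library (before thinning their median depth was 5394 UMIs, against 1963 in acinar barcodes). A UMI of these genes in a barcode therefore does not mark an acinar cell.

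**Figure D2:**
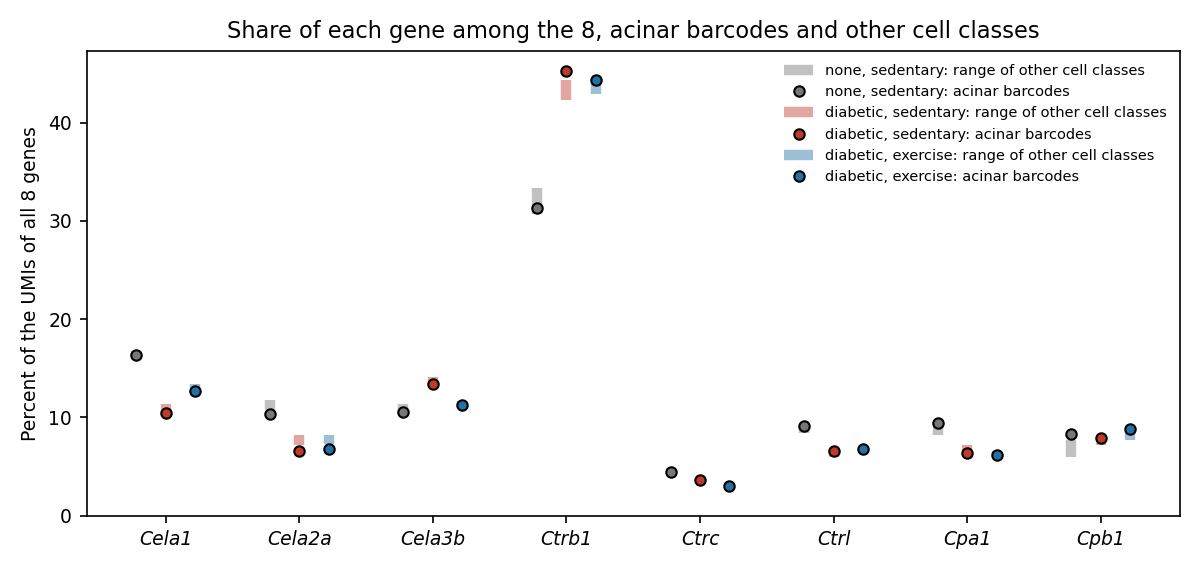
Percent of the UMIs of the 8 genes that each gene held (y axis), as points for acinar barcodes of the 3 libraries and as bars for the range over other cell types with at least 50 barcodes. Ctrb1 lies at 31.3% in none and above 44% in both diabetic libraries, and the bars of each library lie close to its own point.

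Acinar clusters differ between libraries, so ratios were also taken within clusters that had at least 50 barcodes in both libraries. Diabetic sedentary over none could be compared in 5 clusters. Cela1 ran from 0.533 to 0.67, Cela2a from 0.576 to 0.685, Ctrl from 0.621 to 0.753, Cpa1 from 0.64 to 0.746 and Ctrc from 0.682 to 0.852. For each of these 5 genes 0 of the 5 clusters lay above 1. Ctrb1 ran from 1.17 to 1.39 and Cela3b from 1.06 to 1.32, with 5 of 5 clusters above 1 for both. Every cluster value of Ctrb1 thus lay under its pooled 1.47. Cpb1 ran from 0.905 to 1.08, on both sides of 1.

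Diabetic exercise over diabetic sedentary could be compared in 10 clusters. Cela3b (0.748 to 0.86), Ctrc (0.643 to 0.883) and Cpa1 (0.749 to 0.955) lay under 1 in each of the 10. Cela1 lay above 1 in 9 of 10 (0.984 to 1.23), and Ctrb1 in 2 of 10 (0.861 to 1.08). Cela2a spread most widely, from 0.601 to 1.02. Barcodes of 1 cluster still differed in depth and mitochondrial share between these libraries: in the cluster led by Reg3a and Reg3g, median UMIs were 6141 in diabetic sedentary and 2576 in exercise, and mitochondrial medians 1.57% and 3.11%. Their part in the ratios was not tested.

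**Figure D3:**
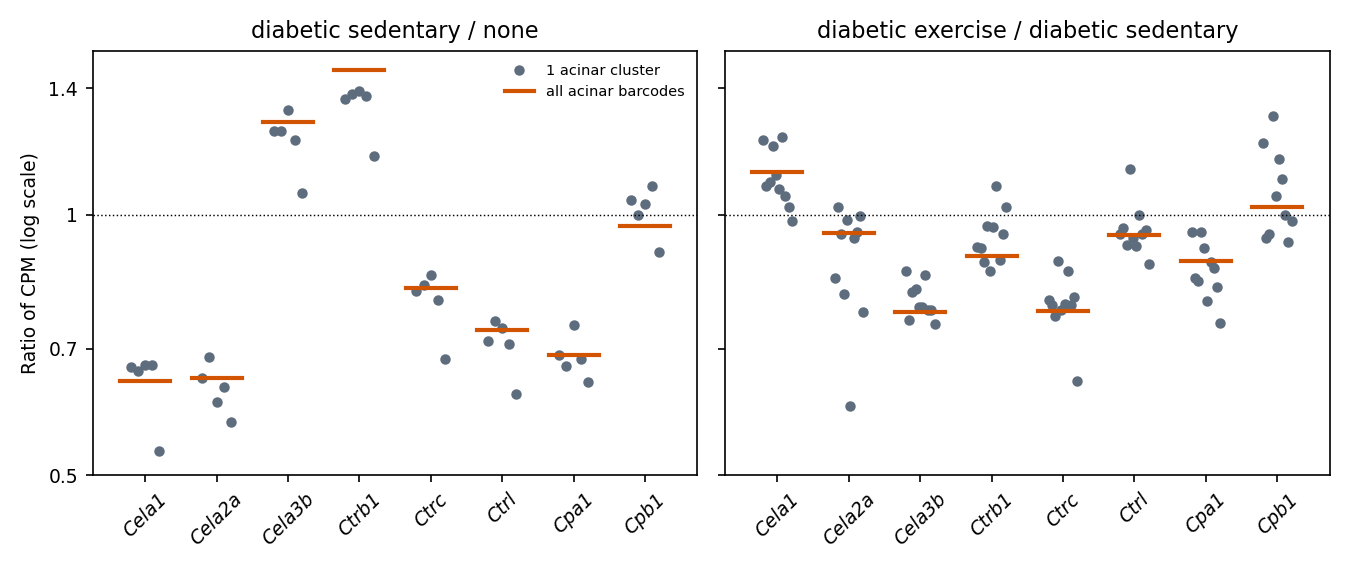
Ratio of CPM (log scale) within single acinar clusters (grey points) and over all acinar barcodes (orange lines), for diabetic sedentary over none in 5 clusters and diabetic exercise over diabetic sedentary in 10. On the left the points of Cela1, Cela2a, Ctrc, Ctrl and Cpa1 lie under 1 and those of Cela3b and Ctrb1 above it, and on the right Cela3b, Ctrc and Cpa1 lie under 1.

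Clusters also differed in the mix within 1 library. In the cluster led by the stress genes Chac1 and Mthfd2 and by Mt2, Ctrb1 UMIs per Cela1 UMI were 1.36, 2.80 and 2.27, under the value of all acinar barcodes of each library. There Cpb1 had 34040, 34916 and 45406 CPM. In the cluster led by Prss1, a trypsinogen gene, the ratio was 7.72 in diabetic sedentary and 7.98 in exercise, with Cela1 at 21988 and 21634 CPM. These were the highest ratios among the cluster sums of at least 50 barcodes. In a cluster led by predicted genes such as Gm42535, the levels of Cela2a were 15803 CPM (diabetic sedentary) and 9494 CPM (exercise), its lowest levels among those sums, and the ratio was 2.67 and 2.42. Markers of other cell types held a median of 0.717% of UMIs outside the 8 genes and Reg2 in that cluster.

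Barcodes were next split by mitochondrial share, which is often raised in damaged cells. In the none library the ratio of Ctrb1 to Cela1 stayed between 1.88 and 2.12 from barcodes with at most 1% to those with 5 to 10%. In diabetic sedentary it ran from 4.44 down to 3.69 at 10 to 20%, and in diabetic exercise between 3.17 and 3.74. In each bin that all 3 libraries filled, none was lowest and diabetic sedentary highest. In the exercise library Cpb1 had 33593 CPM in the 89 barcodes with at most 1%, 39629 at 1 to 2% and 21464 at 10 to 20%. Cela2a had 22844, 17323 and 26208 CPM in the same bins. From 1 to 2% upward the 2 genes thus ran in opposite directions, while the lowest bin broke both courses. In diabetic sedentary barcodes both were lower at 10 to 20% than at 1 to 2%: Cpb1 at 17477 against 29149 CPM and Cela2a at 18365 against 23327. Median depth was lower along the same bins. In exercise it was 10812 UMIs in the lowest bin, 4800 at 1 to 2% and 1795 at 10 to 20%. The bins also hold different numbers of barcodes, from 70 to 5548.

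**Figure D4:**
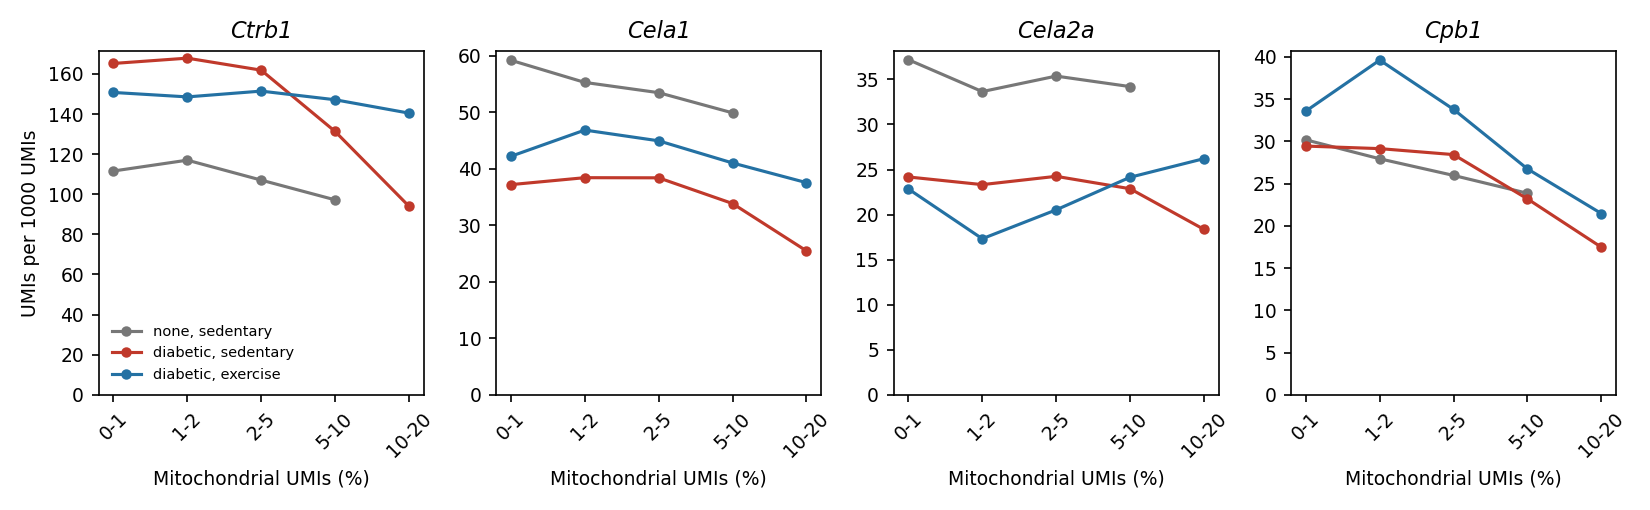
UMIs of Ctrb1, Cela1, Cela2a and Cpb1 per 1000 UMIs (y axes, from 0) in acinar barcodes binned by percent mitochondrial UMIs (x axis), 1 line per library, bins of at least 50 barcodes. Ctrb1 is lower and Cela1 higher in none than in diabetic sedentary in each shared bin, and in exercise Cpb1 goes from 33593 through 39629 to 21464 CPM and Cela2a from 22844 through 17323 to 26208 CPM in the 0 to 1%, 1 to 2% and 10 to 20% bins.

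Across the 27 sums of 1 library and 1 acinar cluster, the members did not vary together as 1 block. Ctrc varied most closely with Ctrl (Pearson r of log2 CPM 0.86) and Cpa1 (0.84), and Cela1 with Ctrl (0.81). Ctrb1 ran against Cela1 (-0.51) and Cpa1 (-0.55) and with Cela3b (0.60). Among 2422 other genes, the summed level of the 8 was most like Prss2, an abundant trypsinogen gene (0.760), Clps, the cofactor of pancreatic lipase (0.719), Tmed6 (0.652), the ribosomal protein gene Rpl32 (0.616) and Zg16, a zymogen granule protein gene (0.613). The sums share libraries, and the summed level also went with the log2 median depth (0.636) and against the mitochondrial share (-0.595), so these values only describe the sums.

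Other secreted products of acinar cells were set beside the 8 genes, with the same 1.5-fold limit. These and the later gene lists were compared in CPM only. Of all genes 4.05% were higher and 15.8% lower in diabetic sedentary over none. The shares were 31.3% and 0.783% in exercise over diabetic sedentary, and 20.9% and 4.44% in exercise over none. Of 12 measured other secreted proteases, 5 were higher and 0 lower in diabetic sedentary than in none, with a median log2 ratio of 0.31. Prss1 had 2.06 CPM in none, 349 in diabetic sedentary and 445 in exercise, and Gm5771 had 14.4, 405 and 557. Both carry the spaced pair of boxes in its CACCTG form, as Cela1 does, and Ctrb1 carries the CAGCTG form. In CPM Cela1 was lower and Ctrb1 higher in both diabetic libraries than in none. Any part of the boxes in these differences was not tested. Trypsinogen genes are close copies of one another, so their counts are uncertain. In exercise over diabetic sedentary 1 of the 12 was higher (Gm10334, a trypsinogen-like gene, 1.79) and 1 lower (Try5, a trypsinogen gene, 0.642), with a median of 0.04.

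Of 12 measured other digestive enzymes, 0 were higher and 8 lower in diabetic sedentary than in none, with a median of -1.18. All measured amylase genes were among the lower ones: Amy2b was at 3854 and 385 CPM and Amy2a5 at 234 and 37.6. In exercise over diabetic sedentary 6 of the 12 were higher and 0 lower, with a median of 0.45, led by Amy2b (4.81) and Amy2a3 (3.66). None of the 8 proteases differed by as much as Amy2b in either comparison.

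Of 12 measured protease regulators and granule proteins, 2 were higher and 2 lower in diabetic sedentary than in none (median -0.17), with Itih4, which codes for an inter-alpha-trypsin inhibitor heavy chain, at 4.66 and Serpinb1a, an inhibitor of serine proteases, at 0.511. In exercise over diabetic sedentary 0 passed in either direction (median 0.06), and the largest ratios were those of the lysosomal protease genes Ctsb (1.39) and Ctsd (1.27). Of 13 genes of the secretory machinery of the endoplasmic reticulum, 2 were higher and 0 lower in diabetic sedentary (median 0.17): the folding enzyme gene Pdia4 (2.47) and the chaperone gene Hsp90b1 (1.54). In exercise over diabetic sedentary 0 passed (median -0.05), with the chaperone genes Canx at 1.41 and Calr at 0.728.

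Of the acinar transcription factors, 9 were measured in diabetic sedentary over none, of which 0 were higher and 1 lower (Foxa3, 0.476), with a median of -0.13. Xbp1, a factor of the secretory stress response, had the next largest difference, 0.811. Of the PTF1 subunits, Ptf1a had 16.3, 17.0 and 16.7 CPM and Rbpjl 64.1, 61.8 and 106. In exercise over diabetic sedentary 5 of 10 were higher and 0 lower, where 31.3% of all genes were higher and 0.783% lower. The median was 0.57 beside the 0.41 of all genes. The largest ratio was that of Foxa2, at 1.91.

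In exercise over none, 6 of the 12 other proteases were higher and 1 lower (median 0.33), led by Prss1 (216) and Gm5771 (38.7). Of the digestive enzymes 0 of 12 were higher and 5 lower (median -0.40), led by Amy2a5 (0.312) and the phospholipase gene Pla2g1b (0.440). Of the regulators and granule proteins 4 of 12 were higher and 2 lower (median -0.05), with Itih4 at 3.88 and Serpinb1a at 0.588. Of the transcription factors 3 of 9 were higher and 0 lower (median 0.04), with Foxa2 at 1.81 and Rbpjl at 1.66. Of the secretory machinery 2 of 13 were higher and 0 lower (median 0.09), Pdia4 at 1.92 and Canx at 1.59.

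Reg2, which codes for a secreted regenerating-family protein, was used to split the acinar barcodes. It had 613, 8074 and 2876 CPM. Barcodes with at least 1% of their UMIs from Reg2 are called Reg2-high, and all other acinar barcodes Reg2-low. They numbered 8 of 7175 in none (0.111%, exact 95% interval 0.04815 to 0.2196), 2200 of 8574 in diabetic sedentary (25.7%, 24.74 to 26.60) and 59 of 12676 in exercise (0.465%, 0.3545 to 0.60). Reg2-high barcodes were deeper: median UMIs were 6302 and 5528 in diabetic sedentary Reg2-high and Reg2-low, and 2780 and 1962 in exercise. Reg2 UMIs were left out of the totals below.

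The 8 genes together held nearly the same part of RNA in both classes, with ratios of Reg2-high over Reg2-low of 1.04 in diabetic sedentary and 1.06 in exercise. In diabetic sedentary Ctrl (1.11, 1.11 to 1.11) and Ctrb1 (1.10, 1.10 to 1.10) had the largest ratios and Cela1 (0.910, 0.907 to 0.913) the smallest. In exercise Cpb1 had the largest, 1.45 (1.43 to 1.48), from 42818 and 29461 CPM, followed by Cpa1 at 1.18 and Ctrl at 1.17. Cpb1 in diabetic sedentary was 1.02 (1.02 to 1.03), from 29694 and 29061 CPM. The 59 exercise Reg2-high barcodes had a median mitochondrial share of 3.77%, against 6.76% in Reg2-low, and Cpb1 was higher at low mitochondrial shares in that library. The part of this in the Cpb1 ratio was not tested. In wider splits of the exercise library Cpb1 was at 1.10 (1101 barcodes from 0.5% Reg2) and 1.01 (2535 barcodes, the highest 20% by Reg2 share).

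The Reg2 contrast lies within libraries, so the library served as a block and the replicate. The none library had too few Reg2-high barcodes to enter, which left 2 libraries. By edgeR's quasi-likelihood test with Benjamini-Hochberg adjustment over 10297 genes, 0 of the 8 genes passed an adjusted p of 0.05, where 0% of genes were higher and 0.0194% lower. At an unadjusted p under 0.05 there were also 0 of 8, beside 333 of all 10297 genes. DESeq2 called 0 of 8, and over all genes 2 higher and 5 lower. The log2 fold changes of the 8 ran from -0.18 to 0.23, and the lowest unadjusted p was 0.851. With 2 libraries a difference of this size could not be told from the spread. The 2 genes that passed were trypsinogen genes that were lower in Reg2-high barcodes, Prss1 (log2 fold change -2.35, adjusted p = 0.0456) and Gm5771 (-2.36, adjusted p = 0.0483).

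The highest 20% of acinar barcodes by Reg2 share were also compared with the rest of each library, which brought in all 3 libraries (1435, 1715 and 2535 barcodes). In the none library this split is weak, with a median Reg2 share of 0.139% in the higher class and 0.0306% in the lower. In CPM, Ctrb1 was 1.10, 1.10 and 1.04 times as high in the higher class, Cela1 0.942, 0.897 and 0.957 times, and Cela3b 0.976, 0.971 and 0.957 times. Ctrb1 lay above 1, and Cela1 and Cela3b lay under 1, in each of the 3 libraries. The remaining elastase gene, Cela2a, was at 0.955 in none but at 1.02 and 1.04 in the diabetic libraries. By edgeR's quasi-likelihood test 0 of 8 passed (lowest adjusted p = 0.617), where 0.0497% of 10065 genes were higher and 0.00994% lower. Under the test's TMM scaling the 8 log2 fold changes were all positive, from 0.10 to 0.31, so the direction for Cela1 and Cela3b depends on the scaling. By the same test 2 of 8, Ctrb1 and Ctrl, had an unadjusted p under 0.05, as did 793 of all 10065 genes.

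With Reg2-high set from 0.5% of UMIs, all 3 libraries also entered (63, 6193 and 1101 barcodes). Here 0 of 8 passed, where 0.0484% of genes were higher and 0.319% lower. Among the lower ones Prss1 (log2 fold change -2.15), Gm2663 (-1.72) and Malat1 (-1.61) had the lowest adjusted p. The genes that passed in the highest 20% were members of the same Reg gene family, Reg3a (log2 fold change 1.41), Reg3b (1.04), Reg3g (0.78) and Reg3d (0.64), with the kallikrein gene Klk1b4 (0.55) and, lower, Prss1 (-1.59). None of the 8 proteases was among the genes called in any of these 3 splits.

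**Figure D5:**
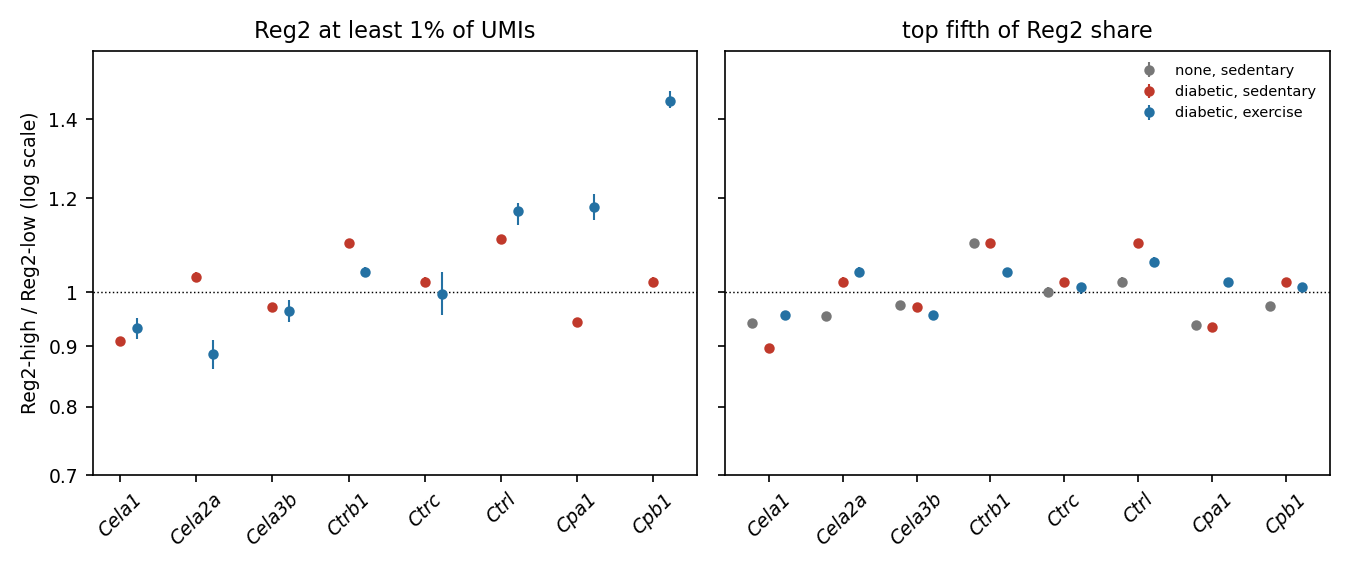
Ratio of CPM in Reg2-high over Reg2-low acinar barcodes (log scale) for each gene, with exact 95% counting intervals, for Reg2-high from 1% of UMIs (left, diabetic libraries only) and for the highest 20% by Reg2 share (right, 3 libraries). Most ratios lie between 0.9 and 1.2, and Cpb1 in the exercise library on the left stands at 1.45.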

How the data were processed

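The authors deposited UMI counts per gene and barcode for 3 libraries, not normalized, made with Cell Ranger (version 7.1.0 per the submitters' processing notes, 6.1.2 per the file headers). The sources used here do not state the alignment build. Libraries held 9958, 12743 and 18433 barcodes and 54128454, 80185752 and 45209034 UMIs (none, diabetic sedentary, diabetic exercise). The 8 genes and all lists were chosen with earlier results of these data known.

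Barcodes were kept with at least 500 UMIs, 200 genes and at most 20% mitochondrial UMIs. Scrublet marked 0% as doublets, so the top 5% by score in each library were removed, leaving 8711, 11019 and 15069. Barcodes were clustered jointly (scanpy 1.11.5, leidenalg 0.10.2, 2000 variable genes, 30 components, 15 neighbours, resolution 1) without the 8 genes and Reg2. A cluster was acinar where its median acinar marker share was at least 0.6 of the highest cluster's and no other type had 2 markers among its 10 leading genes. Raw UMIs were summed over acinar barcodes and given per 1000000 total UMIs, and ratios used a prior count of 0.5 on the log2 scale. Genes with at least 100 UMIs in the 2 libraries served as background. With 1 library per group there was no test between groups. Reg2-high and Reg2-low sums (at least 30 barcodes each) were tested with edgeR 4.0.16 (quasi-likelihood, library as block, TMM) in R 4.3.3, with DESeq2 1.42.0 as an alternative. The edgeR procedure was tested on simulated data with changes larger than those seen for the 8 genes. That simulation therefore does not show whether differences of their size would be found. Share intervals are Clopper-Pearson 95%. All intervals cover counting error only.

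Named genes are the 8 members, Reg2, the 2 genes of each list with the largest absolute log2 ratio in each comparison, and the 5 most like the members' sum; 1 gene under this rule is not reported here. Genes that lead a cluster, Ptf1a, Rbpjl, Cela3a and the genes called in the Reg2 splits were named after their values were seen. Promoters were matched by symbol to RefSeq (7 of 8 genes, GRCm38.p6).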

Additional observations from a re-analysis of the deposited data

Results flagged for a closer look

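For 2 genes the Reg2-high over Reg2-low ratio lay on opposite sides of 1 in the diabetic sedentary and diabetic exercise libraries with both counting intervals away from 1. Cela2a was at 1.03 (1.03 to 1.04) in diabetic sedentary and 0.886 (0.861 to 0.911) in exercise. Cpa1 was at 0.944 (0.940 to 0.947) in diabetic sedentary and 1.18 (1.15 to 1.21) in exercise. Each value comes from 1 library, and the exercise values rest on 59 Reg2-high barcodes. The difference between libraries was not tested. With the highest 20% by Reg2 share, Cela2a was above 1 in both diabetic libraries (1.02 and 1.04), and Cpa1 was at 0.935 and 1.02.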

How the results depend on the processing

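No direction of a median over the 8 genes changed under the 11 alternatives. For diabetic sedentary over none (-0.36) the median log2 ratio was -0.16 with TMM, -0.18 with DESeq2 size factors, -0.32 scaled to UMIs outside secretory genes, -0.35 with barcodes chosen by a gate on marker shares, -0.38 thinned to 1000 UMIs, and -0.39 both for the mean of shares per barcode and for clusters weighted as in diabetic sedentary. For exercise over diabetic sedentary (-0.12) it was -0.60, -0.59 and -0.64 under the 3 scalings. It was -0.13 with at most 10% mitochondrial UMIs, -0.12 with at least 2000 UMIs, -0.10 thinned, -0.11 for the mean of shares, -0.10 in clusters led by acinar markers and -0.07 for weighted clusters. For exercise over none (-0.50) it was -0.78, -0.79 and -0.97 under the 3 scalings, -0.49 with the gate, -0.48 with at most 10% mitochondrial UMIs, -0.47 with at least 2000 UMIs, -0.49 thinned and for the mean of shares, -0.45 in led clusters and -0.42 for weighted clusters. The 2 cluster alternatives were chosen after seeing the data. The cause of these moves was not tested. Members lower past 1.5-fold numbered 0 (TMM) and 1 (outside secretory genes) of 8 for diabetic sedentary over none, where 8.16% and 13.4% of all genes were lower. They numbered 4 and 6 for exercise over diabetic sedentary (5.56% and 6.77% of all genes), and 5 and 5 for exercise over none (10.8% and 20.9%). Thinning and the mean of shares left 0 for diabetic sedentary over none and 2 for exercise over none, and weighted clusters left 2 there.

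Of 24 gene and comparison pairs, 17 kept their direction under all 11 alternatives. The others were Cpb1 in all 3 comparisons, Cela1 and Ctrl in exercise over diabetic sedentary, and Cela3b and Ctrb1 in exercise over none.

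In the Reg2 contrast 0 of 8 genes were called in each of the 15 settings that gave a value, among them those without 1 library in the split at the highest 20%, added after seeing the data. Over all genes the calls there were 5 higher and 1 lower, and 13 and 19 without none, 5 and 0 without diabetic sedentary, and 6 and 9 without exercise. Reg2-high from 2%, or leaving out a diabetic library in the main split, left 1 library and no test. No paired analysis was possible because each group has 1 library, where groups are compared. The Reg2 contrast pairs both classes within a library, and its fit with no library block also called 0 of 8. Over all 10297 genes that fit called 1 higher and 9 lower. Depth limits the exercise library most, with a median of 1963 UMIs per acinar barcode.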
